A study of Mus musculus with 4 samples.

Results

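The 6 genes described here encode receptors through which leukocytes sense chemoattractants: Fpr1 and Fpr2 (formyl peptides), C5ar1 and C3ar1 (the complement fragments C5a and C3a), Ptafr (platelet-activating factor) and Cmklr1 (chemerin). They were found by their gene symbols in a table of read counts for 54532 genes. They were chosen by their reads and ratios in these same 4 libraries, so their own levels and ratios are given as a description, without a test. All 6 had at least 10 reads in at least 1 library, as did 13715 genes in all, but Fpr1 and Fpr2 passed that filter only through the libraries in which they were high.

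The study asked how macrophages are affected when the aryl hydrocarbon receptor (AHR), a ligand-activated transcription factor, is more active in cells of the pre-metastatic niche of breast cancer. Total RNA of wild-type (WT) mouse macrophages from peritoneal fluid was sequenced in 4 libraries, 1 per condition. Cells received normal medium (0% 4T1) with DMSO, normal medium with 10 µM CH223191, 30% 4T1-conditioned medium (4T1-CM) with DMSO, or 30% 4T1-CM with 10 µM CH223191. 4T1 is a mouse mammary carcinoma line, and CH223191 is an antagonist of AHR. According to the methods, peritoneal macrophages came from adult BALB/c mice injected with thioglycollate, an irritant that recruits cells into the peritoneum, so they were elicited rather than resident cells. CH223191 or its vehicle DMSO was also given before the conditioned medium. The duration of treatment of the sequenced cells and the number of mice behind each library are not given in the sources used here. With 1 library per condition the spread between cultures is unknown. The 95% intervals below cover counting error only and compare libraries, not conditions.

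Libraries held between 15535405 and 17557127 reads, and a count of 0 allowed a level of up to 0.171 to 0.189 CPM (reads scaled to a common library size) after TMM scaling, taking 3 reads as its upper limit. All 7 macrophage markers examined were present in every library, led by Lyz2 (lysozyme) at 11888 to 35571 CPM. Cyp1b1, a target gene of AHR chosen with its values known, had 65 reads in normal medium with DMSO, 19 with CH223191, 361 in 4T1-CM plus DMSO and 171 with CH223191. Of other AHR targets, each with the DMSO library before the CH223191 library, Tiparp had 882 and 972 reads in normal medium against 1529 and 1332 in 4T1-CM, and Ahrr had 13 and 10 against 25 and 23. Cyp1a1 is listed at 0 reads in all 4 libraries, and whether genes listed at 0 throughout, here and below, had no reads at all could not be checked in the table.

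Chemoattractant receptors are seven-transmembrane proteins that couple mainly to the inhibitory class of G proteins and direct the migration, degranulation and oxidative burst of phagocytes. Formyl peptides mark bacteria and damaged mitochondria, whereas C3a and C5a are cut from complement proteins where complement is activated. Platelet-activating factor is a phospholipid made by activated cells, and chemerin is a protein cut to its active form at sites of inflammation.

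Fpr1 and Fpr2 are neighbours on chromosome 17. Their coordinates in the deposited table, like those of all 6 genes, were identical to those of GENCODE M21, which uses the build GRCm38. Fpr1 (ENSMUSG00000045551) occupies 17876471 to 17883940 on the minus strand and Fpr2 (ENSMUSG00000052270) occupies 17887824 to 17893952 on the plus strand. The genes run away from each other, and their first bases lie 3884 bases apart. Fpr1 has 2 exons, with the whole coding sequence in the second. GENCODE M21 lists 2 transcripts of Fpr2. The first has 2 exons, with its whole coding sequence in the second, and the other has 3 exons and gives the first base used here.

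**Figure D1:**
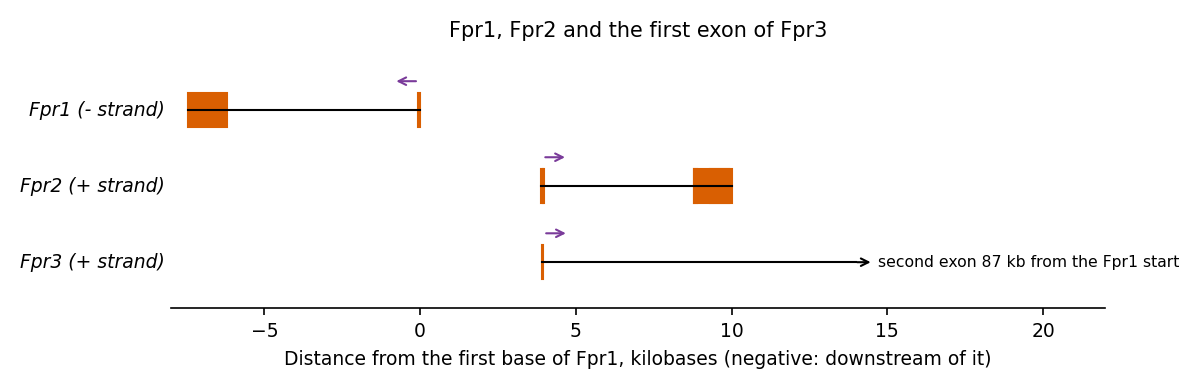
Exons (boxes) and introns (lines) of Fpr1, Fpr2 and the first part of Fpr3 on chromosome 17, drawn to scale by distance in kilobases from the first base of Fpr1, with arrows for the direction of transcription. Fpr1 and Fpr2 start 3884 bases apart and run in opposite directions, and the first exon of Fpr3 lies within that of the Fpr2 transcript with 3 exons. The 2 transcripts of Fpr2 are drawn over each other.

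The family is made of close copies, which bears on how its reads were assigned. The first exon of Fpr3 shares 48 bases with that of the Fpr2 transcript with 3 exons. Over the coding sequence, Fpr2 was identical to Fpr3 at 88.1% of aligned positions and to Fpr1 at 66.3%, whereas Fpr1 was identical to C5ar1, C3ar1, Ptafr and Cmklr1 at 45.0% to 52.3%. The longest identical stretches are shown because a read that falls wholly inside one cannot be placed by its sequence. They are from the coding strand of the GENCODE M21 transcripts of GRCm38, with the identical bases in capitals and 15 bases on either side in lower case. The first pair, 50 bases shared by Fpr1 (chr17:17877265-17877344, minus strand) and Fpr2 (chr17:17893101-17893180, plus strand), is:
Fpr1: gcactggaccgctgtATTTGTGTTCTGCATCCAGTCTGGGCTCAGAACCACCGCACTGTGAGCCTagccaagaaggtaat
Fpr2: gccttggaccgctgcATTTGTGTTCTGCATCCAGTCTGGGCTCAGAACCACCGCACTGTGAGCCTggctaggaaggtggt
The second pair, 94 bases shared by Fpr2 (chr17:17892945-17893068) and Fpr3 (chr17:17970670-17970793), both on the plus strand, is:
Fpr2: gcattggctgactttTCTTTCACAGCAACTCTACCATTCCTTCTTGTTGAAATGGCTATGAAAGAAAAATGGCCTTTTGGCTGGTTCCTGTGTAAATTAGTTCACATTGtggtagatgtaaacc
Fpr3: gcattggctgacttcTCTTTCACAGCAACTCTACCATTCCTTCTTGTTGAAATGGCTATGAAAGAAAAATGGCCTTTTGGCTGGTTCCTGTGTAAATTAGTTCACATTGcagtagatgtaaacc

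Of all 50-base words in its transcripts, Fpr1 shared 0.0784% with another gene and Fpr2 shared 31.5%. The 50 bases were a fixed setting and were not taken from the length of the reads, so these percentages are not shares of reads. Of the shared words of Fpr2, 368 occurred in the pseudogene Gm5966, whose entries had at most 1 read in any library, and 82 occurred in Fpr3, which had 18 reads at most. C5ar1 and C3ar1 shared no such word, and Ptafr and Cmklr1 shared 1.59% and 0.150%. How reads with several equally good places were counted is not given in the sources used here, so the level of Fpr2 may be understated or hold reads of its copies.

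The 250 bases before the start of transcription are shown for Fpr1 and Fpr2, which had the largest differences between media, and for Ptafr, the 1 receptor at least 2-fold lower in 4T1-CM, from the RefSeq promoter table of GRCm38.p6, which represents another strain than BALB/c. Capitals mark matches, on either strand, to GAGGAA (PU.1) and TTCNNNGAA (STAT). The windows lie at chr17:17883940-17884189 (Fpr1, minus strand), chr17:17887574-17887823 (Fpr2, plus strand) and chr4:132563817-132564066 (Ptafr, plus strand):
Fpr1: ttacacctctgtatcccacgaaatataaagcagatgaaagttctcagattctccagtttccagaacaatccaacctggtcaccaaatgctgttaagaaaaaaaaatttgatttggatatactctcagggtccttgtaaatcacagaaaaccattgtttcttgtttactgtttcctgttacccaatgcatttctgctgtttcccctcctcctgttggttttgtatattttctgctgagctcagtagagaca
Fpr2: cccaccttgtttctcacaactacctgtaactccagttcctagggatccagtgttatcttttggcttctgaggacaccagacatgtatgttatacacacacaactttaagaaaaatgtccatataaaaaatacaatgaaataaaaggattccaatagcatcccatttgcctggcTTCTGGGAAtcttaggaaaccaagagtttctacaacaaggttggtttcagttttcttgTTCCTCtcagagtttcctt
Ptafr: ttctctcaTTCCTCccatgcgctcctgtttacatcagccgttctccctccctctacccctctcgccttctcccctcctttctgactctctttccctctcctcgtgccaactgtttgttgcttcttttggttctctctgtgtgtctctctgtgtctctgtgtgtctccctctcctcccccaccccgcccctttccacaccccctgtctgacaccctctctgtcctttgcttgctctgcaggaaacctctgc

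The core sequence bound by AHR with its partner, GCGTG, was in none of the 6 windows, and 28.2% of the 32851 windows of the table held it. GAGGAA was in the windows of Fpr2 (first base at -19 from the start), Ptafr (-242) and Cmklr1 (-98), and in 23.3% of all windows. TTCNNNGAA was found once, in Fpr2 at -77, and in 7.02% of all windows. TGANTCA (AP-1) was found once, in C3ar1 at -22, and in 6.75% of all windows. TTGCNNAA (C/EBP) was in none of the 6 and in 9.56% of all. The windows of Fpr1 and Fpr2 were poor in G and C (38.4% and 38.8%, against a median of 52.4% over all windows), and the window of Fpr2 held no CG dinucleotide, as did 7.87% of all windows. For C5ar1 and Cmklr1 the RefSeq start lies 202 and 6823 bases from that of GENCODE M21, so their windows stand for 1 of several possible starts.

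Between media, the formyl peptide receptors went from no or almost no reads to high levels. Fpr1, the high-affinity receptor for bacterial formyl peptides, had 0 reads in both libraries of normal medium, against 903 reads (51.6 CPM) in 4T1-CM with DMSO and 600 reads (36.9 CPM) with CH223191. Fpr2, which also binds serum amyloid A and annexin A1, had 2 and 0 reads in normal medium, against 2588 reads (148 CPM) in 4T1-CM with DMSO and 1987 reads (122 CPM) with CH223191. Both libraries of 4T1-CM stood far above both of normal medium for each gene. Taking 3 reads in the library as the limit for a count of 0, and leaving out the counting error of the higher library, Fpr1 was at least 274-fold higher in 4T1-CM with DMSO and at least 196-fold higher with CH223191. Fpr2 was 948-fold higher with DMSO, with a counting interval of 326- to 9735-fold that reflects its 2 reads in normal medium, and at least 648-fold higher with CH223191. Among the 257 genes that passed the filter with 3 reads or fewer in both libraries of normal medium, Fpr2 held the most reads in 4T1-CM. Fpr1 held the second most. All 257 passed the filter through 4T1-CM alone, and the receptors were chosen with their reads known, so this order is a description.

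Fpr3 had 0 reads in both libraries of normal medium and 18 and 15 reads in 4T1-CM with DMSO and with CH223191, at least 5.46-fold and 4.89-fold higher. Part of these may be reads of Fpr2, given their shared sequence. Fpr-rs3, Fpr-rs4, Fpr-rs6 and Fpr-rs7, the other members of the family examined, had 0 reads in every library.

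**Figure D2:**
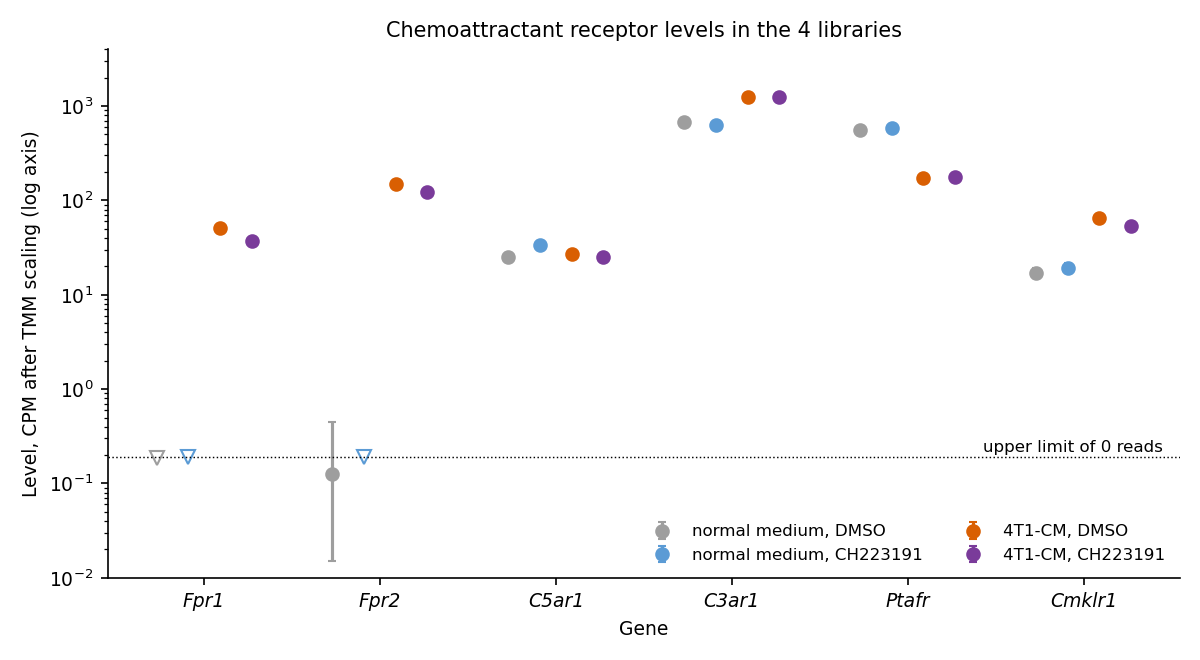
Level of each receptor in each of the 4 libraries, in CPM after TMM scaling on a log axis, with the exact 95% Poisson interval as a bar and an open triangle at the limit that 0 reads allow. Fpr1 and Fpr2 are at or near that limit in normal medium and between 36.9 and 148 CPM in 4T1-CM, Ptafr is lower in both libraries of 4T1-CM, and C5ar1 lies between 25.1 and 34.0 CPM throughout.

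The other receptors were read in every library. Cmklr1, the chemerin receptor, had 274 reads (17.2 CPM) in normal medium with DMSO, 307 (19.3 CPM) with CH223191, 1131 (64.6 CPM) in 4T1-CM plus DMSO and 874 (53.8 CPM) with CH223191. Both libraries of 4T1-CM were above both of normal medium, by 3.75-fold with DMSO (counting interval 3.29 to 4.30) and 2.78-fold with CH223191 (2.44 to 3.18).

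The complement receptors differed from each other. C3ar1, the receptor of C3a, had 10713 reads (672 CPM) in normal medium with DMSO, 10091 (635 CPM) with CH223191, 21826 (1247 CPM) in 4T1-CM plus DMSO and 20131 (1239 CPM) with CH223191. It was 1.86-fold higher in 4T1-CM with DMSO (log2 ratio 0.89, 0.86 to 0.93) and 1.95-fold higher with CH223191 (0.97, 0.931 to 1.0003), just under the 2-fold limit in both comparisons. C5ar1, the receptor of C5a, had 402 reads (25.2 CPM), 540 (34.0 CPM), 471 (26.9 CPM) and 408 (25.1 CPM) in the same order, so that the highest library was normal medium with CH223191 and the other 3 lay close together. Its log2 ratio of 4T1-CM to normal medium was 0.09 with DMSO (-0.10 to 0.29) and -0.43 with CH223191 (-0.62 to -0.25).

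Ptafr, the receptor of platelet-activating factor, was the one receptor of the 6 that was at least 2-fold lower in 4T1-CM. It had 8896 reads (558 CPM) in normal medium with DMSO, 9247 (581 CPM) with CH223191, 3009 (172 CPM) in 4T1-CM plus DMSO and 2845 (175 CPM) with CH223191. The log2 ratio was -1.70 with DMSO (-1.76 to -1.64) and -1.73 with CH223191 (-1.79 to -1.67), a 3.25-fold and a 3.32-fold lower level.

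In the comparison with DMSO, 3 of the 6 receptors were at least 2-fold higher in 4T1-CM (Fpr1, Fpr2 and Cmklr1), where 12.1% of all genes that passed the filter were, and 1 (Ptafr) was at least 2-fold lower, where 6.07% were. In the comparison with CH223191, which shares no library with the first, the counts were again 3 and 1, for the same 4 genes, beside 11.9% and 7.78% of all genes. In both comparisons, 8.04% of all genes were at least 2-fold higher and 3.32% were lower. Since the receptors were chosen with these ratios known, nothing is read from their share. The median log2 ratio of the 6 was 1.40 with DMSO and 1.22 with CH223191, also with Fpr1 and Fpr2 set at their lower bounds, and that of all genes was 0.01 and 0.02.

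**Figure D3:**
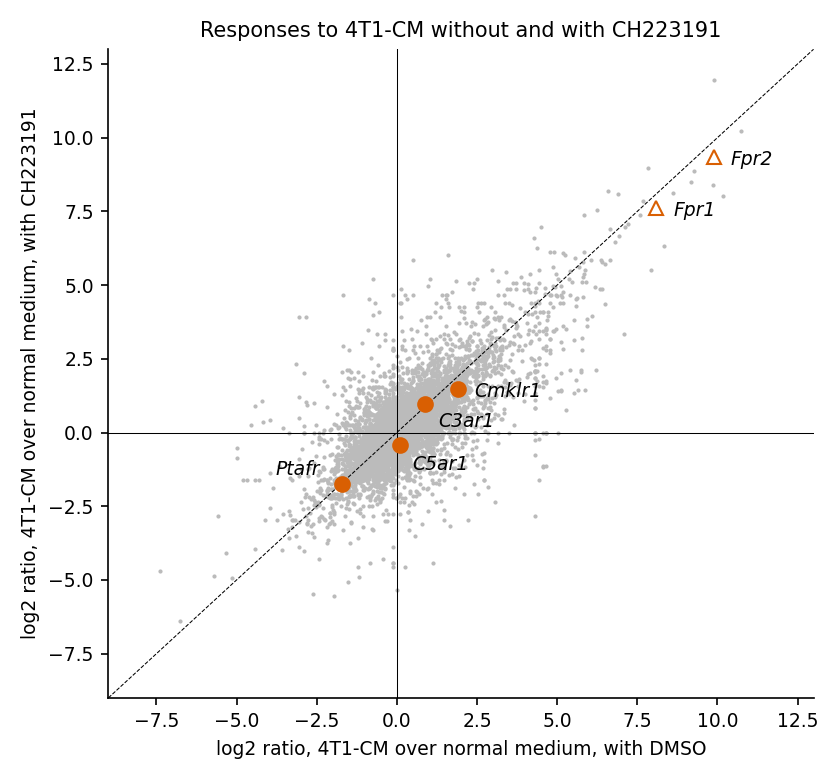
Each point is a gene, placed by its log2 ratio of 4T1-CM to normal medium with DMSO (horizontal axis) and with CH223191 (vertical axis), for the 13715 genes that passed the filter. The 6 receptors are in orange, with open triangles for Fpr1 and Fpr2, of which at least 1 coordinate is a lower bound. They spread from Ptafr at -1.70 and -1.73 to Fpr2 at the upper end. The dashed line marks equal responses. Where Fpr1 and Fpr2 lie beside it depends on the limit taken for 0 reads. C5ar1 and Cmklr1 lie below it, with differences of -0.53 and -0.43.

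CH223191 changed no receptor by 2-fold or more in either medium. With CH223191, 4.36% of all genes in normal medium were higher by 2-fold or more and 2.98% were lower, and in 4T1-CM 2.65% and 2.56% were. In both media, 0.576% were higher and 0.372% lower. In 4T1-CM, Fpr1 was lower with CH223191 by a log2 ratio of -0.48 (-0.63 to -0.33), Fpr2 by -0.27 (-0.36 to -0.19) and Cmklr1 by -0.26 (-0.39 to -0.14), and these counting intervals leave out 0. Of all genes, 95% lay between -1.02 and 1.04 in that comparison. That range includes genes with few reads, so it does not show whether these 3 ratios are unusual at their depth. C3ar1 and Ptafr had log2 ratios of -0.01 (-0.04 to 0.02) and 0.03 (-0.05 to 0.10), and C5ar1 -0.10 (-0.29 to 0.09). In normal medium, where Fpr1 and Fpr2 had too few reads to compare, C5ar1 was higher with CH223191 by a log2 ratio of 0.43 (0.24 to 0.62), Cmklr1 had 0.17 (-0.07 to 0.41), Ptafr 0.06 (0.02 to 0.10) and C3ar1 -0.08 (-0.12 to -0.04).

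**Figure D4:**
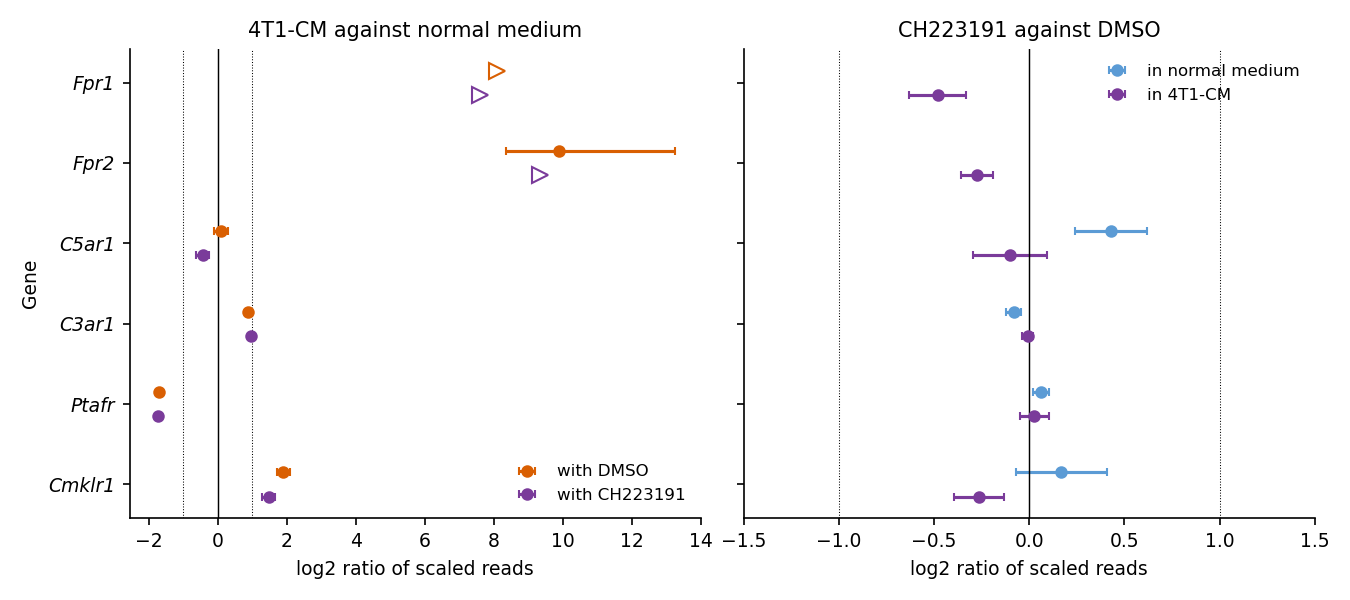
Log2 ratios of scaled reads for each receptor with exact 95% counting intervals, for 4T1-CM against normal medium (left, with DMSO and with CH223191) and for CH223191 against DMSO (right, for each medium). Open triangles are lower bounds, the dotted lines mark a 2-fold ratio, and comparisons with 3 reads or fewer in both libraries are left out. On the left Fpr1, Fpr2 and Cmklr1 lie above 2-fold and Ptafr below, and on the right every ratio lies between -0.48 and 0.43.

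The layout also allows the response to 4T1-CM under CH223191 to be set against that under DMSO. For the 4 receptors with over 3 reads in every library, the difference of log2 ratios, CH223191 minus DMSO, was -0.53 for C5ar1 (-0.80 to -0.26), -0.43 for Cmklr1 (-0.71 to -0.16), 0.07 for C3ar1 (0.03 to 0.12) and -0.03 for Ptafr (-0.12 to 0.05). Over all genes, 95% of such differences lay between -1.74 and 1.501, a range that also includes genes with few reads.

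Levels of different genes were compared as RPKM, that is CPM divided by the length of the gene in kilobases. In normal medium with DMSO, C3ar1 (156 RPKM) and Ptafr (153 RPKM) did not differ beyond counting error, with a ratio of 1.02 (0.99 to 1.05), and together made up almost all of the summed level of the 6. C5ar1 followed at 9.81 RPKM, 1.95-fold above Cmklr1 at 5.04 RPKM (1.66 to 2.28). With CH223191, Ptafr (160 RPKM) was above C3ar1 (147 RPKM) by 1.08-fold (1.05 to 1.12). In 4T1-CM with DMSO the order was C3ar1 (290 RPKM), Fpr2 (114), Ptafr (47.3), Fpr1 (39.0), Cmklr1 (19.0) and C5ar1 (10.5), and it was the same with CH223191. Fpr2 was 2.93-fold above Fpr1 (2.71 to 3.16) with DMSO and 3.38-fold with CH223191 (3.09 to 3.71). C5ar1, ahead of Cmklr1 in normal medium, was last in 4T1-CM, 1.81-fold below Cmklr1 (1.62 to 2.02) with DMSO. C3ar1 exceeded C5ar1 by 15.9-fold (14.40 to 17.62) in normal medium and 27.7-fold (25.2 to 30.4) in 4T1-CM, both with DMSO. The summed level of the 6 was 324 and 326 RPKM in normal medium and 519 and 484 RPKM in 4T1-CM, and the share of Ptafr in it was 47.3% and 49.0% against 9.10% and 9.95%.

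**Figure D5:**
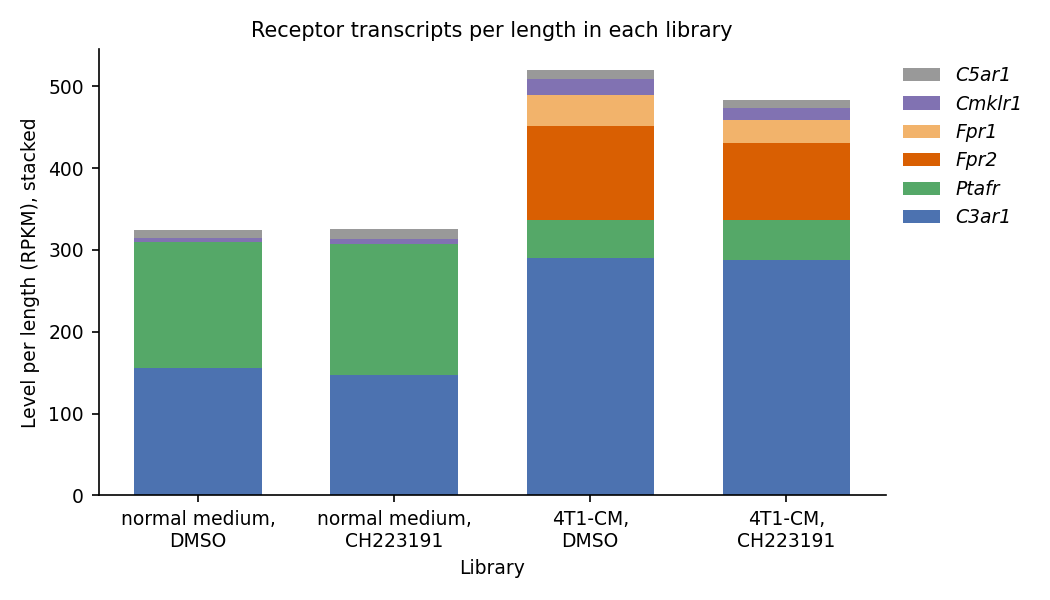
Level per length of the 6 receptors in RPKM, stacked for each of the 4 libraries. Ptafr and C3ar1 fill nearly all of both bars of normal medium, and in 4T1-CM Fpr2 and Fpr1 appear, the part of C3ar1 is larger and that of Ptafr smaller.

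Other genes of the same pathways were taken from lists, and changes named here were at least 2-fold in the same direction in both comparisons of media. Of 12 other leukocyte chemoattractant receptors, 7 passed the filter and 5 were higher in 4T1-CM, where 8.04% of all genes were higher in both comparisons and 3.32% were lower. Those shares are also the background of the 3 lists that follow, and nothing is called particular to a list from its count. Gpr84, a receptor of medium-chain fatty acids, had 0 and 1 reads in normal medium against 170 and 121 in 4T1-CM. S1pr1, a receptor of sphingosine-1-phosphate with the most reads of the list in 4T1-CM, had log2 ratios of 2.46 with DMSO and 2.53 with CH223191. Ccrl2, which binds chemerin and presents it to Cmklr1, had 1.16 and 1.17, Cysltr1 (a receptor of cysteinyl leukotrienes) 1.06 and 1.01, and Ltb4r1 (a receptor of leukotriene B4), from 8 and 6 reads in normal medium, 2.26 and 2.81. Gpr84 and Ltb4r1 passed the filter only through the libraries of 4T1-CM, so their place among the 5 partly follows from the filter. C5ar2, the second receptor of C5a, had 15 and 21 reads in normal medium against 3 and 23 in 4T1-CM, so its 2 comparisons differed. Gpr1, another chemerin receptor, had 0 reads in all libraries.

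Of 16 genes for ligands and the enzymes that make or degrade them, 8 passed the filter, with 4 higher and 1 lower. Saa3, an acute-phase serum amyloid A, had 209 and 376 reads in normal medium against 13725 and 13223 in 4T1-CM (log2 ratios 5.90 and 5.10). C3, the precursor of C3a, had log2 ratios of 4.45 and 4.38, while Hc, which encodes C5, had 0 reads. Lpcat2, an enzyme that makes platelet-activating factor, had 2.05 and 2.25, and Pla2g7, the secreted hydrolase that degrades it, 2.14 and 2.24. Anxa1, which encodes annexin A1 and had the most reads of the list in normal medium, was lower, with -1.56 and -1.54. Rarres2, which encodes chemerin, had between 1 and 6 reads per library.

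All 18 genes of signalling from these receptors passed the filter, 0 were higher in both comparisons and 2 were lower. Dock2, an activator of Rac in leukocyte migration, had log2 ratios of -1.18 and -1.17. Gng10, a G protein gamma subunit, had 101 and 70 reads in normal medium against 9 and 10 in 4T1-CM, but 71.5% of its 50-base words also occur in another gene. Gnai2, the inhibitory alpha subunit with the most reads of the list, had -0.13 and -0.17. The median log2 ratio of the 18 was -0.10 and -0.16. Of 14 genes that switch the receptors off, all passed, 1 was higher and 2 were lower. Rgs16 had log2 ratios of 1.29 and 1.48, Rgs18 -2.16 and -1.96 and Rgs2 -1.40 and -1.38, all 3 being regulators that speed the turn-off of G proteins. Rgs1, with the most reads of the list, had -0.67 and -0.89. The median was -0.27 and -0.38. No gene of these 4 lists was at least 2-fold changed by CH223191 in the same direction in both media.

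In bulk RNA, fewer cells of a type and less RNA per cell cannot be told apart, so markers of other cells stand beside these values. Neutrophils also carry Fpr1 and Fpr2. Of 9 neutrophil markers, Ly6g, S100a9 and Retnlg are listed at 0 reads in all 4 libraries, S100a9 although its partner S100a8 had reads in each, and Cxcr2 was lower in 4T1-CM (12 and 9 reads against 2 and 0). The sum of the 9 was 67.6 and 74.6 CPM in normal medium and 242 and 181 CPM in 4T1-CM, made up mostly of Csf3r, Mmp8 and S100a8. Mmp8 had 35 and 21 reads in normal medium against 2142 and 759 in 4T1-CM, and S100a8 had 99 and 190 against 560 and 412. The markers of monocytes (3 genes, sum 1.63 to 2.07 CPM per library, Ly6c2 at 0 reads), mast cells (5, at most 0.185 CPM), NK cells (3, at most 0.343 CPM), dendritic cells (6, 1.07 to 2.40 CPM) and epithelial tumour cells (5, 0.439 to 1.35 CPM, Krt19 at 0 reads) were low throughout. Of these, Cdh1, the 1 epithelial marker that passed the filter, had 3 and 7 reads in normal medium against 16 and 20 in 4T1-CM, and the dendritic marker Clec9a had 6 and 0 against 23 and 13, both at least 2-fold higher in both comparisons. Cdh1 and Clec9a passed the filter only through the libraries of 4T1-CM. Of 5 eosinophil markers Prg2 and Epx had 0 reads, and the sum, nearly all Siglecf, was 16.2 and 14.4 CPM in normal medium and 6.17 and 5.97 CPM in 4T1-CM. The 5 fibroblast markers summed to 57.3 and 27.0 CPM in normal medium and 145 and 123 CPM in 4T1-CM, led by Col1a2, with Lum at 3 reads or fewer. The other 4 (Col1a1, Col1a2, Col3a1 and Dcn) were at least 2-fold higher in 4T1-CM in both comparisons, and Col1a1 and Col3a1 were at least 2-fold lower with CH223191 in normal medium (log2 ratios -1.60 and -1.85). Among the other markers, with CH223191, Clec9a was at least 2-fold lower and Cdh1 higher in normal medium, and Mmp8 was lower in 4T1-CM. Of all genes, 2.98% were lower and 4.36% higher with CH223191 in normal medium, and 2.56% were lower and 2.65% higher in 4T1-CM. The part of all these markers in the receptor levels was not tested. Of 7 macrophage markers, Adgre1 (log2 ratios 1.99 and 1.83), Lyz2 (1.47 and 1.23) and Fcgr1 (2.46 and 1.83) were also at least 2-fold higher in both comparisons and 0 were lower. Csf1r had 1.03 and 0.98, Itgam 0.74 and 0.58, Cd68 0.84 and 0.07 and Mertk 0.41 and 0.38. For Itgam, 66.3% of its 50-base words also occur in another gene. Of all genes, 8.04% were at least 2-fold higher in both comparisons and 3.32% were lower, the background of the marker counts between media.

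The genes whose pattern over the 4 libraries was most like that of each receptor were found by the distance between their log2 CPM values, each centred on its own mean, among the 8323 genes whose mean reached 10 CPM. With 4 libraries this is a description. Fpr1 was nearest to Acod1 (distance 1.46; 7 and 12 reads in normal medium against 7661 and 4309 in 4T1-CM), the enzyme that makes itaconate, then to Inhba (1.70), a subunit of activin, and Fpr2 (1.73). Fpr2 was nearest to Fpr1, then to H2-M2 (2.59) and Acod1 (2.85). Distances of Fpr1 and Fpr2 depend on the prior count, since they had 2 reads or fewer in normal medium. Ptafr was nearest to Ehd4 (0.05), Itgax (0.11), the integrin CD11c, and Tfeb (0.12). C3ar1 was nearest to Sh3bgrl2 (0.03), Lrrc8b (0.06) and Rab34 (0.07), Cmklr1 to Ehd1, Slfn2 and Stk38l (0.13 to 0.14), and C5ar1 to Dxo, Dnajb1 and Tspyl2 (0.03 each). Among the receptors themselves, the closest pair was C3ar1 and Cmklr1 (0.80) and the most distant Fpr2 and Ptafr (12.8).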

How the data were processed

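The table the authors deposited holds unnormalized counts of reads for each gene, in 1 column for each of the 4 conditions. According to the labels, RNA was extracted with TRIzol and libraries were made with the NEBNext Ultra kit. The submitters' processing notes name HISAT2 2.0.5 and DESeq2 without a role, and the genome build, counting tool and strand setting for these libraries are not given in the sources used here. For alveolar macrophages, the methods of the study name the same version of HISAT2 and counting with featureCounts. Of 54495 genes shared with GENCODE M21, 98.3% had identical coordinates. Genes with at least 10 reads in 1 library were kept. Counts were scaled with TMM (edgeR 4.0.16, R 4.3.3), and log2 ratios used a prior count of 0.5. Intervals are exact (Clopper-Pearson for a ratio, Poisson for a level, conditional for the difference of responses) at 95%. A gene needed over 3 reads in 1 of the 2 libraries and a 2-fold ratio to be called changed. With 1 library each, no 2 conditions were tested against each other, and no p-values are given. A run on simulated counts checked the code only, since such counts cannot carry the unknown spread between cultures. Identity used Biopython 1.88, with Python 3.11.15, and figures matplotlib 3.10.9. The alternatives tried were scaling by DESeq2 1.42.0 or by total counts, a prior count of 5, no filter, 10 reads in every library and edgeR's quasi-likelihood fit with medium and inhibitor as additive terms. Genes were named by rule: the 6 receptors, list genes that moved 2-fold in 1 direction in both comparisons or had the most reads, and the 3 nearest patterns. Others (C5ar2, Fpr3, Gpr1, Hc, Rarres2, the AHR targets and the cell type markers with few or 0 reads) were named with their values seen. The receptors and lists were chosen with earlier results of these data known.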

Additional observations from a re-analysis of the deposited data

Results flagged for a closer look

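In 2 receptors the direction of a difference was not the same in both settings of the other factor. With 1 library per condition these differences were not tested. The log2 ratio of C5ar1 between 4T1-CM and normal medium was 0.09 with DMSO and -0.43 with CH223191, and its log2 ratio of CH223191 to DMSO was -0.10 under 4T1-CM and 0.43 under normal medium. Both readings rest on the same library, normal medium with CH223191, in which C5ar1 had 540 reads against 402 to 471 in the other 3. The log2 ratio of CH223191 to DMSO of Cmklr1 was -0.26 under 4T1-CM and 0.17 under normal medium, the latter with an interval that includes 0.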

How the results depend on the processing

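With size factors of DESeq2, every ratio and difference of the 6 receptors stayed within its counting interval. With total counts, the log2 ratio of C3ar1 between media with DMSO was 0.85 and its ratio of CH223191 to DMSO in normal medium was -0.14. The difference of responses of C3ar1 was 0.12, and Ptafr had 0.0017 for CH223191 in normal medium. Each of these values fell outside its counting interval, and the others stayed within theirs. A prior count of 5 lowered the log2 ratio of Fpr2 with DMSO from 9.89 to 8.43 and left the other ratios it applies to within their intervals. The 3 lower bounds of Fpr1 and Fpr2 use no prior count. The additive fit gives 1 value per factor, with 1 residual degree of freedom: between media 0.93 for C3ar1, -0.17 for C5ar1 and 1.69 for Cmklr1, and for CH223191 -0.046 for C3ar1, 0.17 for C5ar1 and -0.069 for Cmklr1. Of the ratios set beside this fit, 10 fell outside their counting intervals and 8 within. The residual of the fit reflects how far the factors depart from adding up, not the spread between cultures. No p-value is therefore given from it. Asking for 10 reads in every library removed Fpr1 and Fpr2 and left 1 receptor at least 2-fold higher, in each comparison of media and in both.

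Counts over all genes moved with the filter. With 10 reads in every library, genes at least 2-fold higher in 4T1-CM fell from 1657 to 851 (DMSO), 1632 to 869 (CH223191) and 1103 to 586 (both), and lower ones from 832 to 499 and 1067 to 677. With no filter the lower ones with DMSO were 1298. For CH223191 in normal medium, 598 higher genes became 363 (prior count of 5), 996 (no filter) and 226 (10 reads in every library), and 409 lower ones 207, 827 and 89. In 4T1-CM, 364 higher ones became 161, 841 and 83, and 351 lower ones 160, 915 and 53. In both media, 79 became 22, 138 and 18, and 51 became 14, 90 and 4. The cause was not tested. No paired analysis was possible because each condition has 1 library, so no replicate numbers pair the samples and none could be left out. The additive fit compares media within DMSO and within CH223191, which blocks on the inhibitor and not on a replicate.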

Other observations

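Beside Fpr2, Fpr1 and Gpr84, the genes with 3 reads or fewer in both libraries of normal medium that held the most reads in 4T1-CM were Lcn2, which encodes an iron-siderophore-binding protein (0 and 0 reads without 4T1-CM, 326 and 232 under 4T1-CM), Nt5e, the ectonucleotidase CD73 (3 and 3, then 319 and 203), Bpifc (2 and 0, then 263 and 145), the potassium channel Kcna3 (1 and 0, then 196 and 135), complement factor B, Cfb (1 and 1, then 165 and 88), the chemokine Cxcl3 (0 and 1, then 130 and 69) and Siglece (0 and 0, then 101 and 81). These were chosen after their values were seen. In each of the 10 genes, the library of 4T1-CM with DMSO had more unscaled reads than that with CH223191. Total depths were 17557127 and 16388246 reads. The share of all genes with this order was not counted, so nothing is read from it.

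Beyond Fpr1, on the side away from Fpr2, the nearest protein-coding gene was Has1, a hyaluronan synthase, whose first base lies at -28735 bases from that of Fpr1. It had 0 reads in both libraries of normal medium and 3 and 2 in 4T1-CM.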
